A study of Homo sapiens
Mus musculus with 17 samples.

Results

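The genes described here lie in the epidermal differentiation complex of human chromosome 1 and were read in the tumour cells of a bladder cancer xenograft. Members were taken by symbol: every gene of the human table that starts with SPRR, LCE or S100A, together with IVL, LOR, FLG, FLG2, CRNN, HRNR, RPTN and TCHH. This gave 54 of the 23368 genes in the table, and 41 of them averaged 10 normalized counts or more across the 17 libraries and were tested among 14533 genes. By subfamily, 10 of 11 SPRR genes, 7 of 18 LCE genes, 16 of 17 S100A genes, all 6 genes of the S100-fused type (FLG, FLG2, CRNN, HRNR, RPTN and TCHH) and both remaining genes, IVL and LOR, reached that mean. LCE2C (mean 10.4), S100A5 (10.9) and LCE2B (11.9) lay just inside this limit. SPRR2F (7.81), LCE1B (5.57) and LCE6A (5.50) lay just outside it. All 54 symbols matched a gene on chromosome 1 in RefSeq, where LOR is listed as LORICRIN, S100A7L2 as a pseudogene and SPRR2C as a transcribed pseudogene.

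VM-CUB-1, an established line of human bladder cancer cells, was grown as xenografts in nude mice (Hsd:Athymic Nude-Foxn1nu), which lack mature T cells but keep other host cells. Polyadenylated RNA of whole tumours was sequenced, and the reads were mapped once against the human and once against the mouse genome. Human reads are taken to stand largely for tumour cells and mouse reads for host cells. A read that fits both genomes could be counted in both, so the shares of mouse reads given below are not a measure of host cells by themselves. Mice were dosed for 7 days with vehicle alone (4 tumours), with alpelisib at 25 mg/kg (4 tumours), with nintedanib at 40 mg/kg (5 tumours) or with both drugs at these doses (4 tumours). Alpelisib (BYL719) blocks the alpha form of phosphoinositide 3-kinase, and nintedanib blocks receptor kinases for VEGF, FGF and PDGF. The question of the series is how the drugs act together on xenografts that resist nintedanib. The sample titles call 3 of the nintedanib tumours responders and 2 non-responders, while the design text of the series counts 2 and 3, and the titles were followed. All groups share the same cell line and host strain, so the results describe 1 line. Whether each tumour came from a mouse of its own is not stated in the labels, and p-values therefore measure the spread between these samples, which may be technical.

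Stratified epithelia build a cornified envelope beneath the plasma membrane as their outermost cells mature. Involucrin (IVL) is among the first proteins laid down, small proline-rich proteins (SPRR) cross-bridge the others, loricrin (LOR) and the late cornified envelope proteins (LCE) are added late, and transglutaminases join them through covalent bonds. The S100-fused proteins, such as filaggrin (FLG), carry a calcium-binding S100 domain in front of long repeats and organise keratin filaments. Most S100A proteins, by contrast, are small calcium sensors that act inside the cell or are secreted during inflammation. Normal bladder lining does not cornify, but squamous differentiation with expression of these genes is a known feature of a share of bladder cancers. The genes sit side by side in the order S100A10 and S100A11, S100-fused genes, LCE, IVL and SPRR, LOR, S100A9 to S100A7, and S100A6 to S100A1. No sequences are shown, because no genome of the build used for mapping was at hand.

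Recovered human reads per library ranged from 7429753 to 25654879 with a median of 20312801. The vehicle 3 library had the fewest human reads, and 72.9% of its mouse reads fell on 2 genes that mark ribosomal RNA, Rn45s and Lars2. Krt1, a keratin of the outer epidermis, read 1724 and 6507 normalized counts in the mouse reads of vehicle 4 and alpelisib 1, against at most 4.99 in the other 15 libraries. Human reads carried the epithelial markers KRT5, KRT14, KRT17, KRT6A, KRT8, KRT18, KRT19, EPCAM, CDH1 and TP63 in every group, which together took 2.71% of the human signal under vehicle and 5.16% under the combination. The sum does not stand for each marker, since 8 of the 10 had a positive and 2 a negative change under the combination. The endothelial marker CDH5 was listed at 0 in human reads of the vehicle and combination groups, while 10 of 14 host stromal and immune markers passed the limit there, most of all COL1A1.

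Members of the complex were higher in treated than in vehicle tumours on balance, and 2 of them, SPRR1B and S100A10, rose under the combination. Together the 41 members took 0.822% ± 0.340 (SD, n = 4) of the human signal in vehicle tumours. Their share was 1.66% ± 0.272 (n = 4) under alpelisib, 1.50% ± 0.610 (n = 5) under nintedanib and 1.68% ± 0.385 (n = 4) under the combination. In bulk tumours, more cells of a kind and more RNA per cell cannot be told apart. The sum of genes listed as host keratinocyte markers, mainly Krt14 in the mouse reads, had a higher mean in each treated group than under vehicle. That difference, and whether the sum stands for host keratinocytes, was not tested. The 9 markers, all in the table and 8 with a mean of at least 10, summed to between 21055 and 41547 normalized counts under vehicle, 58240 and 114931 under alpelisib, 35399 and 61386 under nintedanib and 45932 and 165121 under the combination. Krt14 made up 87.4% of this sum and Krt5 10.8%. Of the other markers, Krt1, Krt10, Krtdap, Dsg1a, Lor and Ivl did not follow the sum. Outside vehicle 4 and alpelisib 1 none of them exceeded 15.6 normalized counts. Trp63 ranged from 63.4 to 287 under vehicle and 44.8 to 280 under alpelisib. Its range was 14.9 to 173 under nintedanib and 38.2 to 283 under the combination. Mouse reads were 23.7% of the Krt14 and KRT14 reads together (22.4% to 27.3% in single libraries), and 6.31% of those of Krt5 and KRT5 (3.97% to 9.51%). The part of these markers in the members' values was not tested.

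Changes below are log2 fold changes of normalized count plus 1 with their standard error (SE), from a limma fit over all 14533 genes, and adjusted p-values use the Benjamini-Hochberg method over those genes with a threshold of 0.05. Under alpelisib all 41 members had a positive change with a median of 1.40, against a median of 0.025 over all tested genes, of which 52.0% were positive. Under nintedanib 38 of 41 were positive (median 1.18), against 49.8% of all genes (median -0.0017). Under the combination 40 of 41 were positive (median 1.58), against 47.2% of all genes (median -0.032). These 3 comparisons share the vehicle libraries and are not independent of each other. Members low under vehicle, such as LCE2B and LCE2C, passed the limit only through treated tumours. Part of these positive counts therefore follows from the filter.

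After adjustment 0 members passed under alpelisib and 0 under nintedanib, where 0 of all tested genes passed as well, and 2 of 41 passed as higher under the combination, where 0.317% of all tested genes did. No member passed as lower, as did 0.0413% of all genes under the combination. At an unadjusted p under 0.05, 29 members were higher under alpelisib (11.5% of all genes), 23 under nintedanib (5.11%) and 28 under the combination (11.2%), and 0 members were lower, beside 7.17%, 2.01% and 6.89% of all genes. DESeq2, run on the recovered reads, gave an adjusted p to 1008 genes and 11 members under alpelisib and under nintedanib. Under the combination 14528 genes and all 41 members had an adjusted p. Passing as higher were 8 members under alpelisib (16.4% of the genes given an adjusted p), 2 under nintedanib (1.29%) and 11 under the combination (2.48%). With gene sets this unlike, these counts are not comparable between the single drugs and the combination.

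The values were also compared by overlap. For 16 of 41 members every alpelisib tumour lay above every vehicle tumour, as for 5.89% of all tested genes. For 13 of 41 every combination tumour did, as for 5.27%. For nintedanib the count was 0 of 41, beside 0.819% of all genes. In 0 of 41 members did a whole treated group lie below vehicle, beside 5.95%, 0.509% and 5.31% of all genes under alpelisib, nintedanib and the combination. The heat map of members by library shows these rows in the order of the genes.

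**Figure D1:**
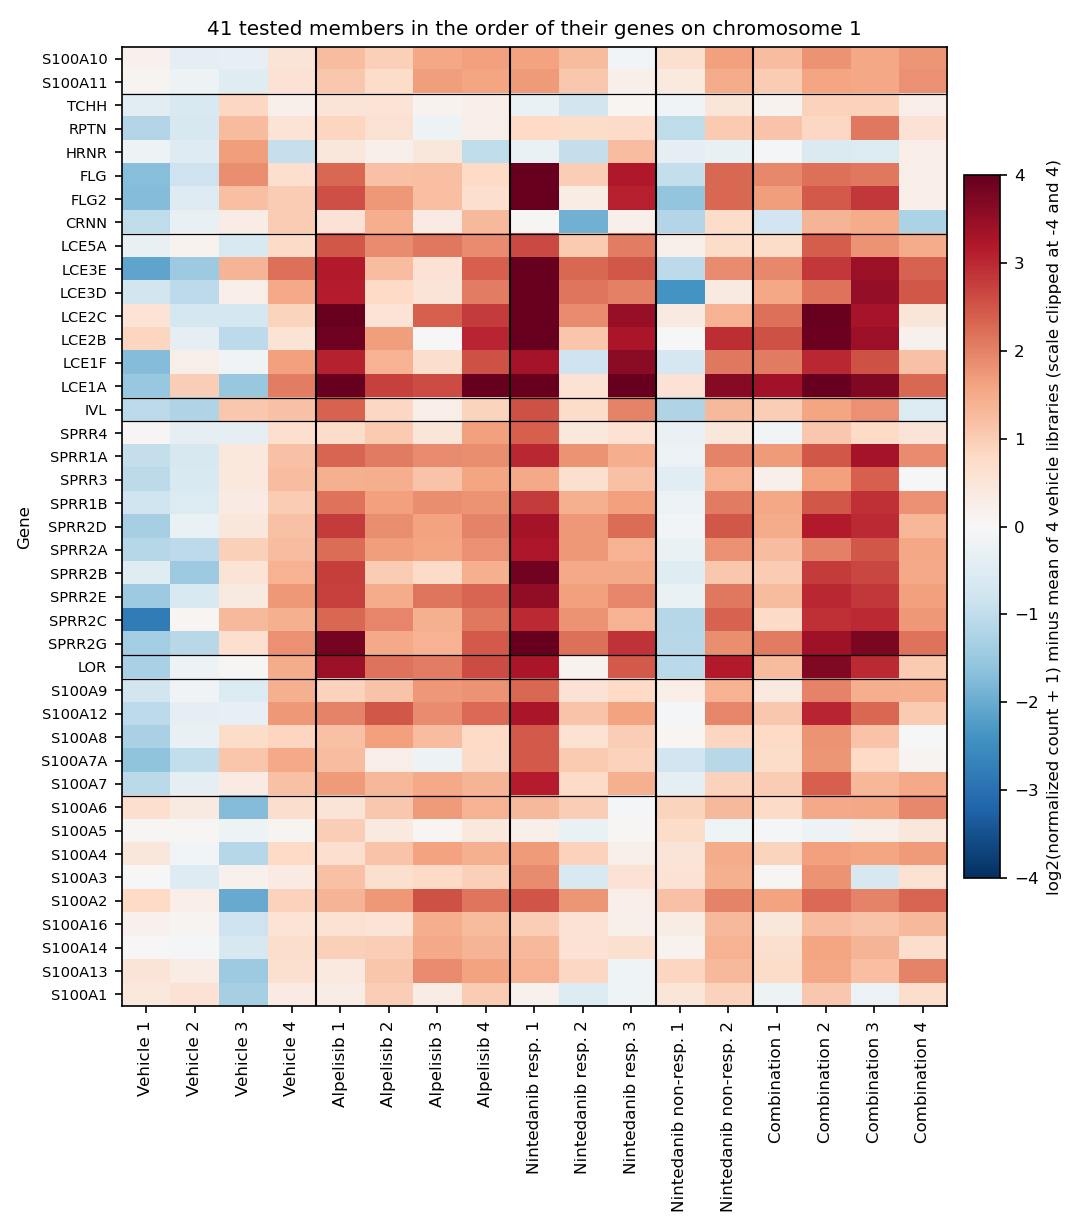
Heat map of the 41 tested members (rows, in chromosome order) in the 17 libraries (columns); colour is log2(normalized count + 1) minus the mean of the 4 vehicle libraries, clipped at -4 and 4. Vehicle 1 and 2 are pale blue or white in most rows, nintedanib responder 1 is the darkest red column, and nintedanib non-responder 1 resembles the vehicle columns.

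The SPRR genes, whose products bridge other envelope proteins, had medians of 1.91 under alpelisib, 1.57 under nintedanib and 2.15 under the combination. All 10 tested SPRR genes were positive in each of the 3 comparisons. SPRR1B, a major envelope precursor, rose under the combination. Throughout, values are normalized counts by replicate number, and for nintedanib responders 1 to 3 precede non-responders 1 and 2. SPRR1B read 1613, 1897, 3481 and 5664 in the vehicle tumours, 12564, 8704, 10194 and 9784 under alpelisib, 19185, 7503, 8705, 2372 and 11706 under nintedanib and 8080.5, 15764, 21118 and 9812 under the combination. Every alpelisib and every combination tumour lay above the highest vehicle tumour, whereas non-responder 1 lay among the vehicle tumours. The mean was 3164 ± 1859 (SD, n = 4) under vehicle and 13694 ± 5944 (n = 4) under the combination. The change was 1.87 ± 0.47 under alpelisib (adjusted p = 0.209), 1.54 ± 0.44 under nintedanib (adjusted p = 0.619) and 2.19 ± 0.47 under the combination (adjusted p = 0.0499) in limma.

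The combination call for SPRR1B is close to the threshold. It passed in 10 of 29 alternative analyses, with adjusted p from 7.8e-04 in DESeq2 to 0.197 without the combination 3 tumour. Leaving out any 1 of vehicle 1, 2 and 3, the 4 alpelisib tumours, nintedanib responder 2 and combination 2, 3 and 4 left 0 members past the threshold. There were 3 without either non-responder, 4 without responder 1, responder 3 or combination 1, and 5 without vehicle 4. SPRR1A, its close paralog, did not pass in the analysis reported but did in 10 of 29 alternatives, as many as SPRR1B. Its adjusted p went from 0.0108 in DESeq2 to 0.204 in limma without combination 3, so the 2 genes are not set apart by the threshold. SPRR1A read 520.3, 641, 1340.0 and 2238 in the vehicle tumours, 5008, 4217, 3673 and 3671 under alpelisib, 8183, 3440.1, 2725, 841 and 3995 under nintedanib and 3234, 5624, 10119 and 3724 under the combination. Its treated values separated from vehicle in the same places as those of SPRR1B, with 2.35 ± 0.50 under the combination (limma adjusted p = 0.0506), 2.04 ± 0.50 under alpelisib and 1.60 ± 0.48 under nintedanib. Reads of these paralogs, and of the SPRR2 genes among themselves, may have been split by the authors' counting.

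SPRR3, a proline-rich protein of internal stratified epithelia such as the oesophagus, did not pass. SPRR3 read 583, 790.3, 1593 and 2806 in the vehicle tumours, 3211, 3281, 2623 and 3609 under alpelisib, 3465, 1863, 2690.2, 879 and 3149 under nintedanib and 1381, 3761, 6307 and 1207 under the combination. Alpelisib 3 lay below vehicle 4, and 2 combination tumours lay below vehicle 3. Its changes were 1.40 ± 0.52, 0.86 ± 0.50 and 1.06 ± 0.52 under alpelisib, nintedanib and the combination, none of which passed.

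The SPRR2 genes form a cluster of close copies. SPRR2A read 225, 242, 967 and 1180.4 in the vehicle tumours, 2348, 1602, 1496 and 1788 under alpelisib, 4750.1, 1671, 1310.5, 419 and 1793 under nintedanib and 1189, 2033, 2775 and 1456 under the combination. In SPRR2A all alpelisib and combination tumours exceeded the vehicle tumours, although vehicle 4 lay just under combination 1. SPRR2D read 108, 226, 373 and 619 in the vehicle tumours, 1907, 1001, 833 and 1082 under alpelisib, 2756, 917, 1298, 252 and 1535 under nintedanib and 769.7, 2481, 2175 and 690.2 under the combination. Here too both groups stood above vehicle without overlap, and the change was 2.06 ± 0.58 under alpelisib and 2.24 ± 0.58 under the combination (limma adjusted p = 0.0983). SPRR2E read 92.9, 167, 329 and 864 in the vehicle tumours, 1739.6, 720.0, 1134 and 1295 under alpelisib, 3003, 800.0, 1002, 215 and 1115 under nintedanib and 625, 2074, 1853 and 803 under the combination. The vehicle 4 tumour was higher in SPRR2E than 1 alpelisib and 2 combination tumours, so that the groups overlapped.

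The other 4 tested SPRR genes did not pass either. SPRR2G ranged from 12.3 to 121 under vehicle and from 144 to 468 under the combination, which did not overlap, with a change of 2.85 ± 0.78 (limma adjusted p = 0.103). SPRR2B, SPRR2C and SPRR4 reached at most 130.3, 54.3 and 60.2, each in nintedanib responder 1. Under the combination their changes were 2.002 ± 0.67, 2.11 ± 0.83 and 0.58 ± 0.44. SPRR4 had the smallest change of the family in each of the 3 comparisons. SPRR2F, below the limit, ranged from 0 to 24.7.

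**Figure D2:**
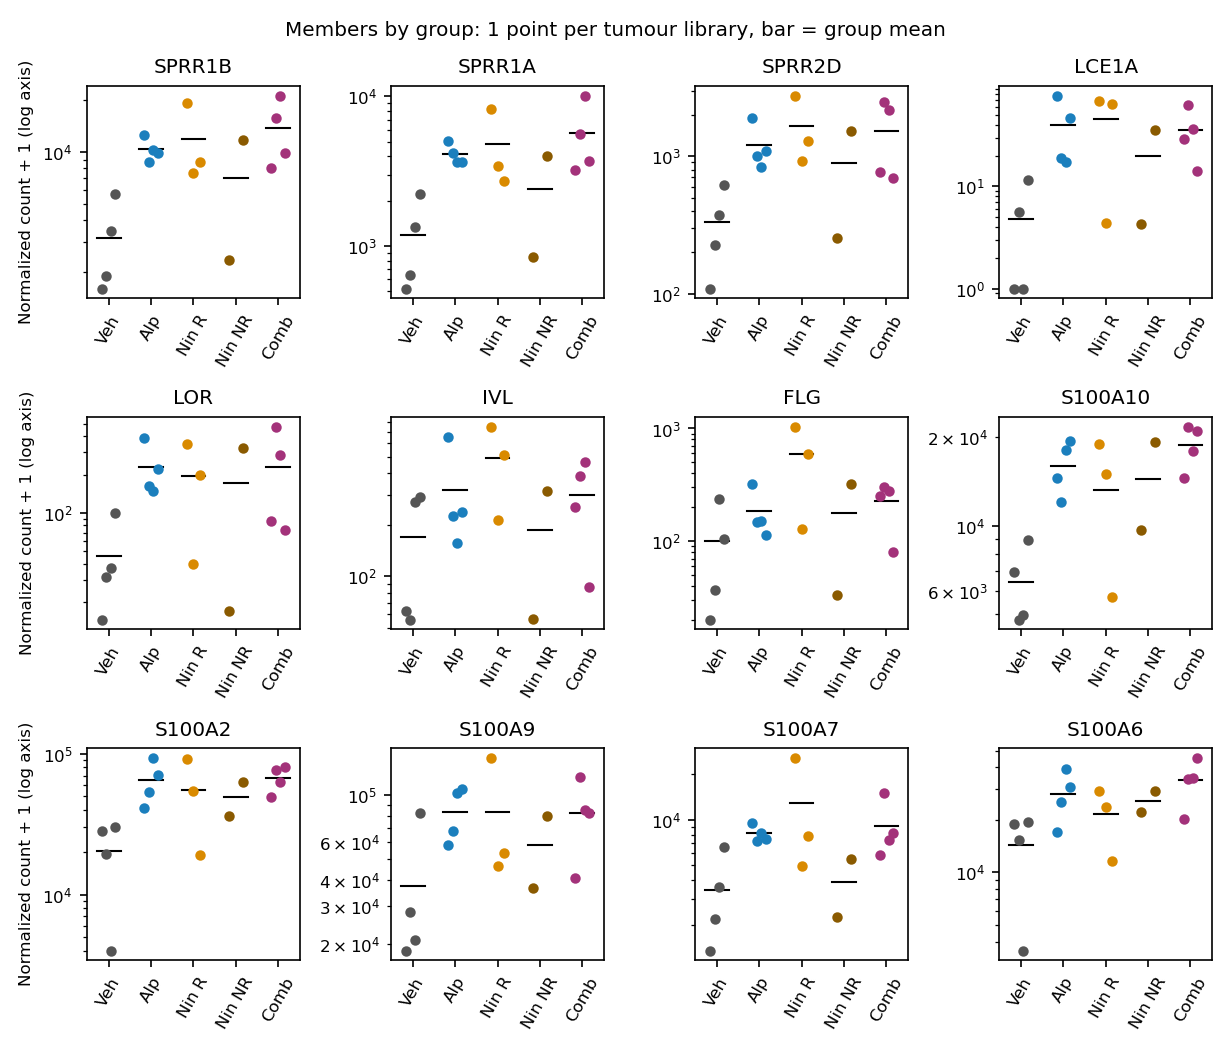
Normalized count + 1 on log axes for 12 members, 1 point per tumour, by group (Veh vehicle, Alp alpelisib, Nin R and Nin NR nintedanib responders and non-responders, Comb combination); bars are group means. For SPRR1B all 4 combination points lie at or above 8080.5, over the highest vehicle point of 5664, while S100A2 and S100A6 have a single vehicle point, vehicle 3, far under the others.

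The LCE genes, which encode late envelope proteins of the outer epidermis, had low counts and with a pseudocount of 1 had the highest subfamily medians, at 2.09 under alpelisib, 1.93 under nintedanib and 2.51 under the combination. The nintedanib median of the LCE genes was 1.05 without responder 1 and 1.25 without vehicle 1. All 7 tested genes were positive in the 3 comparisons, and 0 passed. In LCE5A, LCE1F, LCE2B and LCE2C no vehicle tumour reached 10, with at most 6.68, 9.35, 2.73 and 2.00. They met the limit on the mean through treated tumours, so their signs and the LCE medians partly follow from that filter. LCE3D read 12.3, 9.74, 26.1 and 63.5 in the vehicle tumours, 196, 38.2, 30.6 and 91.5 under alpelisib, 675, 97.2, 90.04, 3.25 and 27.97 under nintedanib and 64.1, 101, 255 and 124 under the combination. Nintedanib responder 1 stood far above all others in LCE3D, and non-responder 1 below every vehicle tumour. The combination tumours lay just above the vehicle tumours without overlap, with a change of 2.43 ± 0.76 (limma adjusted p = 0.134). LCE3D belongs to the group of LCE genes that is induced in injured skin.

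LCE1A read 0, 4.58, 0 and 10.7 in the vehicle tumours, 76.4, 18.03, 16.4 and 46.1 under alpelisib, 68.1, 3.38, 63.03, 3.25 and 34.5 under nintedanib and 28.2, 61.1, 35.7 and 13.1 under the combination. Vehicle 1 and vehicle 3 were listed at 0 in LCE1A, and all alpelisib and combination tumours lay above vehicle 4. Its changes, 3.54 ± 0.95 under alpelisib and 3.45 ± 0.95 under the combination (limma adjusted p = 0.103), depend on the pseudocount: under alpelisib the value was 3.54 with a pseudocount of 1, 4.07 with 0.5 and 2.27 with 5. The LCE median moved likewise, from 2.09 to 2.23 and 1.31 under alpelisib, and from 2.51 to 2.89 and 1.47 under the combination. The corresponding SPRR median under the combination was 2.15, 2.19 and 1.99, so that with a pseudocount of 5 it lay above the LCE median.

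LCE3E read 0, 0.573, 10.03 and 18.7 in the vehicle tumours, 37.6, 9.02, 5.47 and 21.5 under alpelisib, 69.1, 20.3, 22.9, 1.08 and 14.8 under nintedanib and 15.2, 29.8, 44.9 and 20.9 under the combination. The treated groups overlapped vehicle in LCE3E, where vehicle 3 and 4 were well above vehicle 1 and 2. LCE5A, LCE1F, LCE2B and LCE2C never exceeded 45.4 normalized counts, and their changes under the combination lay between 1.61 ± 0.44 for LCE5A and 2.57 ± 0.84 for LCE2C. Of the 11 LCE genes under the limit, LCE3B and LCE3C were listed at 0 in all 17 libraries, which allows up to 3 reads per library, or 1.72 to 6.02 normalized counts. The other 9 (LCE3A, LCE2D, LCE2A, LCE4A, LCE1E, LCE1D, LCE1C, LCE1B and LCE6A) reached between 0.795 (LCE4A) and 19.4 (LCE1B) in their highest library. LCE genes are close copies, so that reads could be split between them.

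Involucrin and loricrin, an early and a late envelope protein, did not pass in any comparison. IVL read 61.5, 55.02, 271 and 288 in the vehicle tumours, 653, 225, 155 and 237 under alpelisib, 746, 213, 508, 55.2 and 316 under nintedanib and 253, 386, 461 and 86.3 under the combination. Vehicle 3 and 4 lay inside the range of the treated tumours, and all 3 treated groups overlapped vehicle. The change of IVL was 1.08 ± 0.68 under alpelisib (adjusted p = 0.361), 1.07 ± 0.64 under nintedanib (adjusted p = 0.619) and 0.96 ± 0.68 under the combination (adjusted p = 0.458).

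LOR read 13.7, 30.4, 36.1 and 99.5 in the vehicle tumours, 387, 162, 148 and 219 under alpelisib, 346, 38.9, 199, 16.2 and 324 under nintedanib and 85.8, 474, 285 and 73.2 under the combination. Every alpelisib tumour exceeded the highest vehicle tumour in LOR, while responder 2 and non-responder 1 under nintedanib and combination 1 and 4 lay at vehicle levels. The change of LOR was 2.56 ± 0.84 under alpelisib, 1.59 ± 0.80 under nintedanib and 2.25 ± 0.84 under the combination, with limma adjusted p of 0.21, 0.619 and 0.177.

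The S100-fused genes split by gene. Their medians were 0.65 under alpelisib, 0.17 under nintedanib and 0.87 under the combination, and 0 of 6 passed. The nintedanib median of the S100-fused genes turned to -0.058 without vehicle 1 and -0.022 without vehicle 2, and was 0.66 without vehicle 3, 0.30 without vehicle 4, 0.39 without non-responder 1 and 0.11 without responder 3. Under alpelisib it was 0.40 without vehicle 1. FLG and FLG2 had changes above 1 in each comparison, and the other 4 smaller or mixed ones. FLG encodes profilaggrin, which is cut into the filament-bundling protein of the outer epidermis. FLG read 19.1, 35.5, 237 and 104 in the vehicle tumours, 322, 146, 149.8 and 111 under alpelisib, 1037, 128, 598, 32.5 and 318 under nintedanib and 249, 299.9, 279.9 and 78.4 under the combination. Vehicle 3 was higher than 3 of the 4 alpelisib tumours, and nintedanib responders 1 and 3 were the highest of all. The change of FLG was 1.36 ± 0.79, 1.90 ± 0.75 and 1.63 ± 0.79 under alpelisib, nintedanib and the combination, with limma adjusted p of 0.329, 0.619 and 0.281. Its relative FLG2 had 1.53 ± 0.89, 1.69 ± 0.85 and 1.80 ± 0.89.

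CRNN, cornulin, is a protein of the oesophageal lining. CRNN read 92.9, 154, 231 and 377 in the vehicle tumours, 282, 515, 235 and 463 under alpelisib, 195, 49.05, 217, 82.3 and 316 under nintedanib and 111, 484, 523 and 78.4 under the combination. Every treated group overlapped vehicle, with a change of 0.91 ± 0.63 under alpelisib, -0.42 ± 0.60 under nintedanib and 0.21 ± 0.63 under the combination. TCHH encodes trichohyalin, a protein of hair follicles and tongue papillae. TCHH read 99.7, 87.1, 237 and 155 in the vehicle tumours, 190.3, 198, 148 and 159.9 under alpelisib, 111, 79.5, 142, 120.1 and 186 under nintedanib and 148, 252, 254 and 162 under the combination. Vehicle 3 was again within the highest values, and the changes were 0.37 ± 0.30, -0.12 ± 0.29 and 0.56 ± 0.30.

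RPTN encodes repetin, an envelope component. RPTN read 30.04, 43.6, 169 and 102 in the vehicle tumours, 127, 105, 60.1 and 81.9 under alpelisib, 121, 117, 118, 33.6 and 145 under nintedanib and 155, 122, 303 and 105 under the combination. Combination 3 was highest and vehicle 1 lowest, and the change under the combination was 1.17 ± 0.50 (limma adjusted p = 0.227). HRNR, hornerin, ranged from 18.7 to 118 under vehicle and from 24.1 to 44.4 under the combination, with changes of 0.024 ± 0.53, -0.12 ± 0.50 and -0.23 ± 0.53. Under alpelisib the sign of HRNR turned with TMM scaling, edgeR and DESeq2, among other settings.

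**Figure D3:**
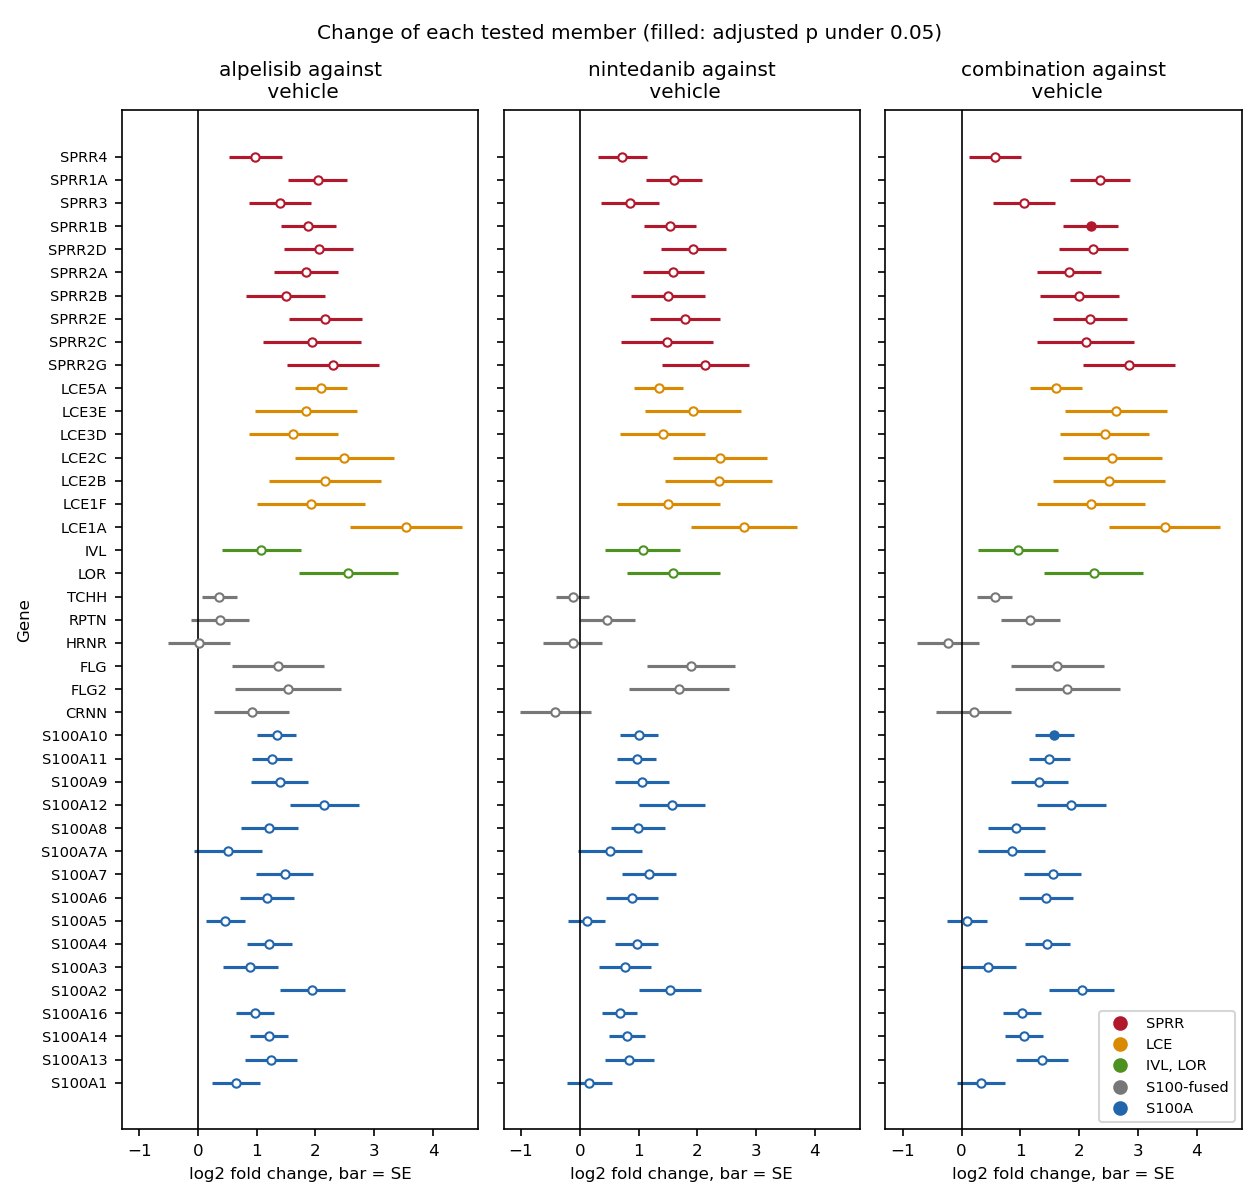
log2 fold change against vehicle of the 41 tested members in 3 panels (alpelisib, nintedanib, combination) on a common axis; points are limma estimates, bars 1 SE, colours subfamilies, and filled points mark an adjusted p under 0.05. SPRR1B (2.19) and S100A10 (1.58) under the combination are the filled points, and HRNR lies nearest to 0 under alpelisib, at 0.024.

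The S100A genes had medians of 1.21 under alpelisib, 0.93 under nintedanib and 1.34 under the combination, and all 16 tested genes were positive in each comparison. Since they stand in 3 stretches of the complex, they are described by stretch. S100A10 and S100A11, next to the S100-fused genes, had medians of 1.30 under alpelisib, 0.99 under nintedanib and 1.54 under the combination. S100A10 (p11) is the light chain of the annexin A2 heterotetramer at the plasma membrane. S100A10 read 6957, 4797, 4963 and 8966 in the vehicle tumours, 14544, 12033, 18062 and 19339.8 under alpelisib, 18908, 15003, 5710.1, 9634 and 19213 under nintedanib and 14519, 21705, 18005 and 20906 under the combination. All alpelisib and all combination tumours lay above the highest vehicle tumour, while nintedanib responder 3 lay within the vehicle range. The mean went from 6421 ± 1960.4 (SD, n = 4) under vehicle to 18784 ± 3257 (n = 4) under the combination. S100A10 rose by 1.58 ± 0.34 under the combination (limma adjusted p = 0.0499), and the change was 1.34 ± 0.34 under alpelisib (adjusted p = 0.209) and 1.005 ± 0.32 under nintedanib (adjusted p = 0.619).

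The S100A10 call passed in 10 of 29 alternative analyses, with adjusted p from 6.3e-04 in DESeq2 to 0.194 without vehicle 2. Mouse reads made up 12.3% of the reads of S100A10 and mouse S100a10 together, and 8.35% to 17.7% in single libraries. S100A11, a calcium sensor that inhibits keratinocyte growth in culture, did not pass. S100A11 read 8147, 6542, 5412 and 11381 in the vehicle tumours, 15832, 12633, 24363 and 22527 under alpelisib, 24637, 15964, 8654, 9833 and 21129.7 under nintedanib and 15197, 22743, 22265 and 26876 under the combination. Here as well the alpelisib and combination tumours did not overlap vehicle, and the change under the combination was 1.49 ± 0.34 (limma adjusted p = 0.0722).

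The stretch beside LOR holds S100A9, S100A12, S100A8, S100A7A and S100A7, which encode secreted inflammatory and antimicrobial proteins of neutrophils and stressed keratinocytes. Its median was 1.39 under alpelisib, 1.06 under nintedanib (0.69 without responder 1) and 1.32 under the combination. S100A9 read 18574, 28106, 20865 and 81817 in the vehicle tumours, 57888, 67522, 101582 and 106814 under alpelisib, 149666, 46198, 53411, 36644 and 80019 under nintedanib and 40703, 121675, 85007 and 82245 under the combination. Vehicle 4 was above 7 of the 13 treated tumours and well above the other vehicle tumours in S100A9, and responder 1 was highest. The change was 1.39 ± 0.49 under alpelisib (adjusted p = 0.216), 1.06 ± 0.46 under nintedanib (adjusted p = 0.619) and 1.32 ± 0.49 under the combination (adjusted p = 0.173).

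S100A8 read 5839.5, 11604, 23429 and 25611 in the vehicle tumours, 32193, 44479.6, 33683 and 24477 under alpelisib, 76933, 21862, 27811, 14923 and 25876 under nintedanib and 24671, 49838, 31444 and 13963 under the combination. Its product pairs with that of S100A9 to form calprotectin. In S100A8 vehicle 4 lay inside all 3 treated groups, and the change was 1.21 ± 0.48, 0.99 ± 0.46 and 0.93 ± 0.48. S100A7 (psoriasin) ranged from 1363 to 6587 under vehicle and from 7285 to 9552 under alpelisib, which did not overlap, with 1.48 ± 0.49 under alpelisib and 1.55 ± 0.49 under the combination. S100A12 had 2.15 ± 0.59 under alpelisib, and its alpelisib tumours (704 to 1063) also lay above vehicle (91.5 to 629). S100A7A, a close copy of S100A7, had the smallest changes of this stretch under alpelisib, nintedanib and the combination, at 0.51 ± 0.57, 0.51 ± 0.55 and 0.85 ± 0.57. Its span in RefSeq overlaps that of S100A8, and with the strand setting not given in the sources used here, reads of the overlap cannot be told apart. The pseudogene S100A7L2 stayed at or below 1.31.

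Host neutrophils are a further source of S100a8 and S100a9 in a tumour. Mouse reads made up 0.855% of the S100A8 reads of both species (0.211% to 3.05% across libraries) and 0.535% of those of S100A9 (0.113% to 2.03%). The summed host neutrophil markers in mouse reads ranged from 384 to 485 normalized counts under vehicle and from 231 to 835 under the combination, 3 of 8 passed the limit, and Ly6g was not in the table. Their part in the result was not tested.

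The 9 genes from S100A6 to S100A1 had medians of 1.17 under alpelisib, 0.81 under nintedanib and 1.07 under the combination. S100A2 encodes a nuclear calcium sensor of basal epithelial cells that is a target of p53 family factors. S100A2 read 28199, 19396, 4006 and 30357 in the vehicle tumours, 41468, 53774, 93827 and 70254 under alpelisib, 92095, 54665, 19126, 36185 and 62869 under nintedanib and 49356, 76618, 63204 and 80744 under the combination. The vehicle 3 tumour was far below all others, and all alpelisib and combination tumours lay above vehicle. The change was 1.95 ± 0.55 under alpelisib (adjusted p = 0.209), 1.54 ± 0.52 under nintedanib (adjusted p = 0.619) and 2.05 ± 0.55 under the combination (adjusted p = 0.103).

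S100A6 read 19023, 15380.0, 3551 and 19459 in the vehicle tumours, 17014, 25238, 39248 and 31065 under alpelisib, 29270.5, 23742, 11534, 22175 and 29392 under nintedanib and 20138, 34184, 34870.5 and 45533 under the combination. S100A6 (calcyclin) is a calcium sensor of proliferating cells. Vehicle 3 was lowest by a wide margin in S100A6 too, all combination tumours exceeded vehicle, and alpelisib 1 did not. Its change was 1.17 ± 0.46, 0.89 ± 0.44 and 1.44 ± 0.46. Mouse reads made up 20.0% of S100A6 reads of both species and kept close to that share in every library, from 18.1% to 23.2%; the source of these mouse reads was not tested.

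S100A14 read 5501, 5419, 3545 and 9141 in the vehicle tumours, 10882, 11042, 16111 and 14437 under alpelisib, 13600.5, 8361, 8614, 6191 and 14527 under nintedanib and 8763, 16509.8, 14223 and 8999 under the combination. S100A16 read 6714, 6510.3, 3390.2 and 8692 in the vehicle tumours, 9083, 8771, 16566 and 14278 under alpelisib, 11844, 8992, 6922, 7403 and 14814 under nintedanib and 8172, 13979, 13298 and 14691 under the combination. Both encode S100 proteins of epithelial cells, and both were above vehicle in every alpelisib tumour, with 1.21 ± 0.32 for S100A14 and 0.97 ± 0.32 for S100A16. Under the combination some tumours lay within the vehicle range, and the changes were 1.07 ± 0.32 and 1.03 ± 0.32, which did not pass. S100A4, S100A13, S100A3, S100A1 and S100A5 had changes from 0.091 ± 0.33 (S100A5) to 1.46 ± 0.38 (S100A4) under the combination. S100A1 lies inside the span of S100A13, and 71.0% of its reads in both species together were mouse reads, so that its values cannot be assigned to tumour cells alone.

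The vehicle 3 library bears on this stretch. It was the lowest of 17 libraries for 7 of these 9 genes and for none of the SPRR genes or the 5 S100A genes beside LOR. This place was not particular to the stretch, since vehicle 3 was also lowest for S100A11 and, ties included, for 4 of 7 LCE genes. Vehicle 1 was the lowest for 8 of 10 SPRR genes and for all 5 S100A genes beside LOR. Without vehicle 3 the median of the 9 genes was 0.76 under alpelisib, 0.40 under nintedanib and 0.85 under the combination. What sets vehicle 3 apart was not tested.

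**Figure D4:**
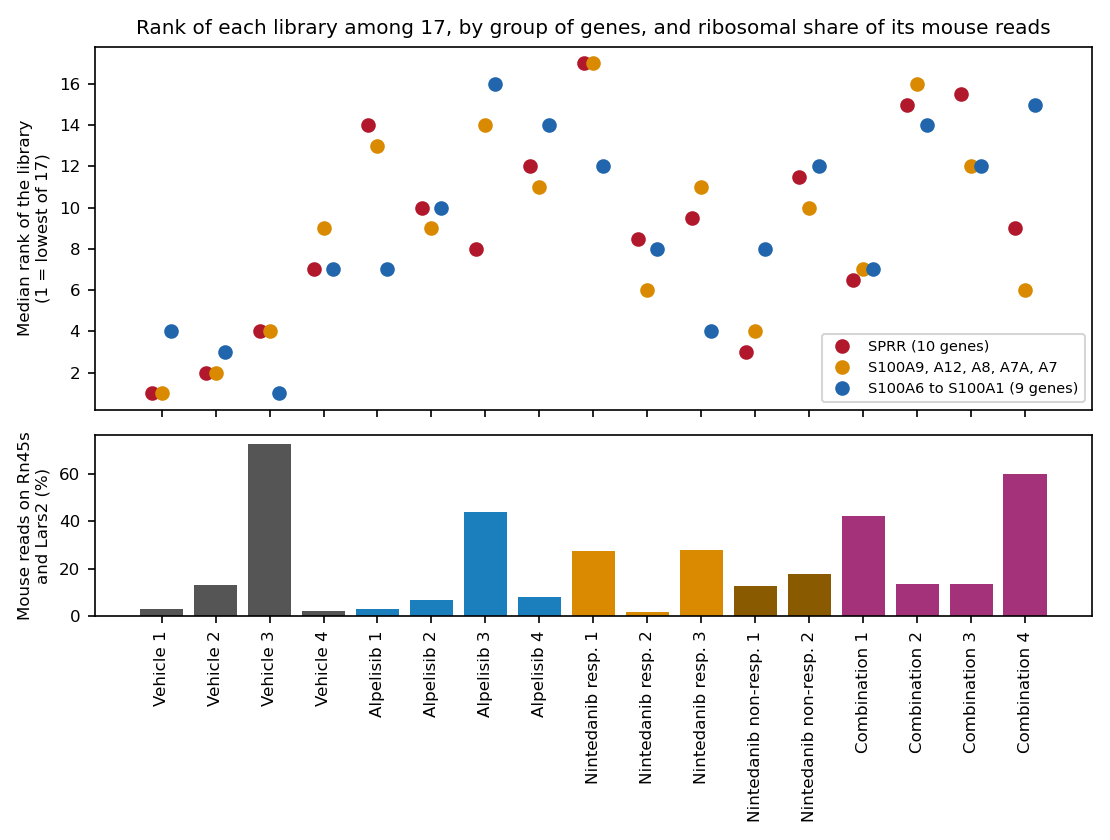
Top, median rank of each library among the 17 (1 is lowest) for the SPRR genes, the S100A genes beside LOR and the 9 genes from S100A6 to S100A1; bottom, share of mouse reads on Rn45s and Lars2. Vehicle 3, with the highest share at 72.9%, has a median rank of 1 for the 9 genes and of 4 for both other groups, and nintedanib responder 1 has a median rank of 17 for the SPRR genes and for the S100A genes beside LOR.

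Adding nintedanib to alpelisib, or alpelisib to nintedanib, gave no call. Against alpelisib alone, 25 of 41 members were higher under the combination with a median of 0.098, beside 49.7% of all tested genes. Of these members 0 passed, beside 0 of all tested genes. Against nintedanib alone, 34 of 41 were higher with a median of 0.37, beside 51.3% of all genes. Again 0 passed, beside 0 of all genes. At an unadjusted p under 0.05 the counts were 0 and 1 (TCHH) of 41, where 1.29% and 1.28% of all genes were higher, and 0 and 0 were lower, where 3.17% and 2.55% of all genes were. For SPRR1B the difference from alpelisib alone was 0.32 ± 0.47 with a 95% interval of -0.66 to 1.30, and from nintedanib alone 0.65 ± 0.44 with -0.28 to 1.59. For S100A10 these were 0.24 ± 0.34 (-0.47 to 0.94) and 0.58 ± 0.32 (-0.094 to 1.24). The intervals hold 0 as well as changes of more than 1 in SPRR1B.

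Alpelisib against nintedanib had 34 of 41 members higher under alpelisib (median 0.29), beside 53.7% of all genes. There were 0 calls among members, beside 0 of all genes. The departure from additivity (the change under the combination less the sum of the changes under each drug) was negative for 39 of 41 members with a median of -1.19 (all genes -0.050). It was positive for 2 members, beside 46.1% of all genes. For SPRR1B it was -1.22 ± 0.64 and for S100A10 -0.77 ± 0.46 (limma adjusted p = 0.662 for both), and 0 members passed, beside 0 of all genes. At an unadjusted p under 0.05, 6 of 41 members were lower than additive, beside 4.42% of all genes, and 0 were higher, beside 2.42%. The vehicle libraries enter this value with a plus sign and the comparisons against vehicle with a minus sign.

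Among nintedanib tumours, 30 of 41 members were higher in the 3 tumours titled responders than in the 2 titled non-responders, with a median of 1.05. Of all genes 45.7% were higher, with a median of -0.032. All 10 SPRR genes (median 1.29), all 7 LCE genes (median 1.46) and the 5 S100A genes beside LOR (median 1.06) were positive, and 1 of the 9 genes from S100A6 to S100A1 was (median -0.29). LCE3D had the largest difference, at 4.04 ± 0.98 (limma adjusted p = 0.999). No member passed, beside 0 of all genes, and 8 of 41 were higher at an unadjusted p under 0.05, beside 1.20% of all genes.

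This comparison rests on single tumours. Without non-responder 1 the median over members was -0.047, and without non-responder 2 it was 2.06. Nintedanib responder 1 was the highest of all 17 libraries for 22 of 41 members, and without it the median change of nintedanib against vehicle was 0.78. Without responder 1 only 39 members reached the limit on the mean, so its own values helped to choose the members. SPRR1B shows the pattern: non-responder 1 read 2372, within the vehicle range, and non-responder 2 read 11706, above responders 2 and 3.

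Genes that act on or beside these proteins were read from lists of related function. For the counts of positive genes below, the shares over all tested genes were 52.0%, 49.8% and 47.2% under alpelisib, nintedanib and the combination. Of 13 tested enzymes of envelope assembly, 12, 11 and 10 were positive under alpelisib, nintedanib and the combination, with medians of 0.45, 0.43 and 0.34, and 0 passed. ASPRV1, the protease that processes profilaggrin, had 2.13 ± 0.59 under alpelisib (limma adjusted p = 0.209), with means of 101 ± 74.8 under vehicle and 394 ± 124 under alpelisib. SULT2B1, a cholesterol sulfotransferase, had 1.45 ± 0.47, and ALOXE3, an epidermal lipoxygenase, 1.71 ± 0.57, both under the combination. TGM1, the membrane-bound transglutaminase, had 1.16 ± 0.48 under alpelisib.

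The 15 genes of the envelope scaffold and desmosomes had medians of 0.44, 0.32 and 0.62, and 0 passed. CNFN, cornifelin, which is an envelope component, had 2.05 ± 0.60 under the combination (limma adjusted p = 0.12). CDSN (corneodesmosin) had 1.65 ± 0.64 and PKP3 (plakophilin 3) 0.95 ± 0.30 under the combination, and CSTA (cystatin A) 1.54 ± 0.52 under alpelisib. The sum of this list was highest in vehicle 3, at 149802 normalized counts.

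Of 29 regulators of epidermal genes, 17, 18 and 16 were positive under alpelisib, nintedanib and the combination, with medians of 0.15, 0.11 and 0.087, and 0 passed. HOPX, a homeodomain protein of differentiating epithelium, had 1.87 ± 0.40, 1.74 ± 0.38 and 1.40 ± 0.40 (limma adjusted p = 0.209, 0.619 and 0.112). Its mean was 96.4 ± 29.6 under vehicle and 351 ± 85.4 under alpelisib. The values of SATB1, a chromatin organiser of the complex, were -0.91 ± 0.24, -0.58 ± 0.23 and -0.63 ± 0.24. Those of NOTCH1, the receptor that drives keratinocytes out of the basal layer, were -0.89 ± 0.30, -0.78 ± 0.29 and -1.04 ± 0.30. TFAP2C, an AP-2 factor, had 1.51 ± 0.41 under alpelisib and 0.041 ± 0.41 under the combination.

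Of 8 tested partners and receptors of S100 proteins, 7, 6 and 7 were positive, with medians of 0.28, 0.18 and 0.39, and 0 passed. ANXA2, the annexin bound by S100A10, had 0.64 ± 0.25, 0.66 ± 0.24 and 0.64 ± 0.25, with means of 24774 ± 6078 under vehicle and 38749.9 ± 9498 under the combination. Under the combination BSG (basigin), ANXA1 and ANXA6 had 0.61 ± 0.24, 0.67 ± 0.30 and 0.51 ± 0.30. S100P, an S100 gene on another chromosome, had 1.35 ± 0.49, 0.97 ± 0.47 and 1.23 ± 0.49. Of 8 further genes of the complex 4 passed the limit, and all 4 were positive in each comparison, with 1.83 ± 0.72 for PRR9 under alpelisib and 1.80 ± 0.85, 1.08 ± 0.39 and 0.77 ± 0.40 for KPRP, PGLYRP3 and PGLYRP4 under the combination.

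Epithelial and host markers in the human reads did not pass in any comparison. Of the 10 epithelial markers 8 were positive under the combination with a median of 0.52, led by KRT17 at 1.69 ± 0.38 (limma adjusted p = 0.0661), KRT14 at 1.45 ± 0.41, KRT5 at 1.03 ± 0.33 and KRT6A at 1.26 ± 0.42. The rise was not uniform. At an unadjusted limma p under 0.05, 4 were higher and 2 lower, the lowest at -0.75, beside 11.2% and 6.89% of all genes. Under alpelisib 4 were higher and 1 lower, the lowest at -0.85, beside 11.5% and 7.17%. Of the 10 tested host markers 5, 7 and 6 were positive with medians of 0.033, 0.32 and 0.087. Their sum ranged from 3130.2 to 7978 normalized counts under vehicle and from 4882 to 9142 under the combination. CD68 had 1.22 ± 0.33 and ACTA2 0.80 ± 0.37 under the combination, EMR1 0.90 ± 0.28 under nintedanib and VWF 0.63 ± 0.39 under alpelisib. Other host markers went the other way, with 5, 3 and 4 of the 10 negative under alpelisib, nintedanib and the combination. The lowest changes were -0.997, -0.552 and -1.72 in that order, and 0 were lower at an unadjusted limma p under 0.05. The part of these cells in the result was not tested.

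Genes of the outer host epidermis were high in the mouse reads of 2 tumours. Mouse Lor read 145 in vehicle 4 and 288 in alpelisib 1 against at most 1.27 elsewhere, and 33 host Sprr and Lce genes summed to 911 and 1286 in these libraries against at most 10.8 in the other 15. Mouse Tchh read 1063 in vehicle 4 and 59.1 in alpelisib 1, while human TCHH read 155 and 190.3 there, inside its range of 79.5 to 254 over all libraries. Mouse reads made up 0.086% of SPRR1B reads of both species over all libraries, 0.840% of SPRR1A reads and 1.1e-04% of S100A2 reads. Of the 30 tested members with a mouse gene of the same name, 12 had a share of at least 10%. They were, beside S100A10, S100A6 and S100A1, the S100A genes S100A13 (11.9%) and S100A4 (25.6%), the S100-fused genes RPTN (10.1%), FLG2 (13.3%), HRNR (29.5%) and TCHH (45.9%), and LOR (13.9%), SPRR4 (22.0%) and LCE1F (38.3%). In single libraries the share reached 68.1% for LOR, 75.9% for FLG2, 86.5% for HRNR and 91.0% for TCHH. Human IVL was highest of its group in alpelisib 1, at 653, where mouse Ivl read 21.8. Its highest value of all libraries, 746, was in nintedanib responder 1, where mouse Ivl was listed at 0. Any link between them was not tested. Without vehicle 4 and alpelisib 1, an alternative chosen after the data were seen, 39 of 40 tested members were positive under alpelisib with a median of 1.65, and the SPRR median was 2.16.

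**Figure D5:**
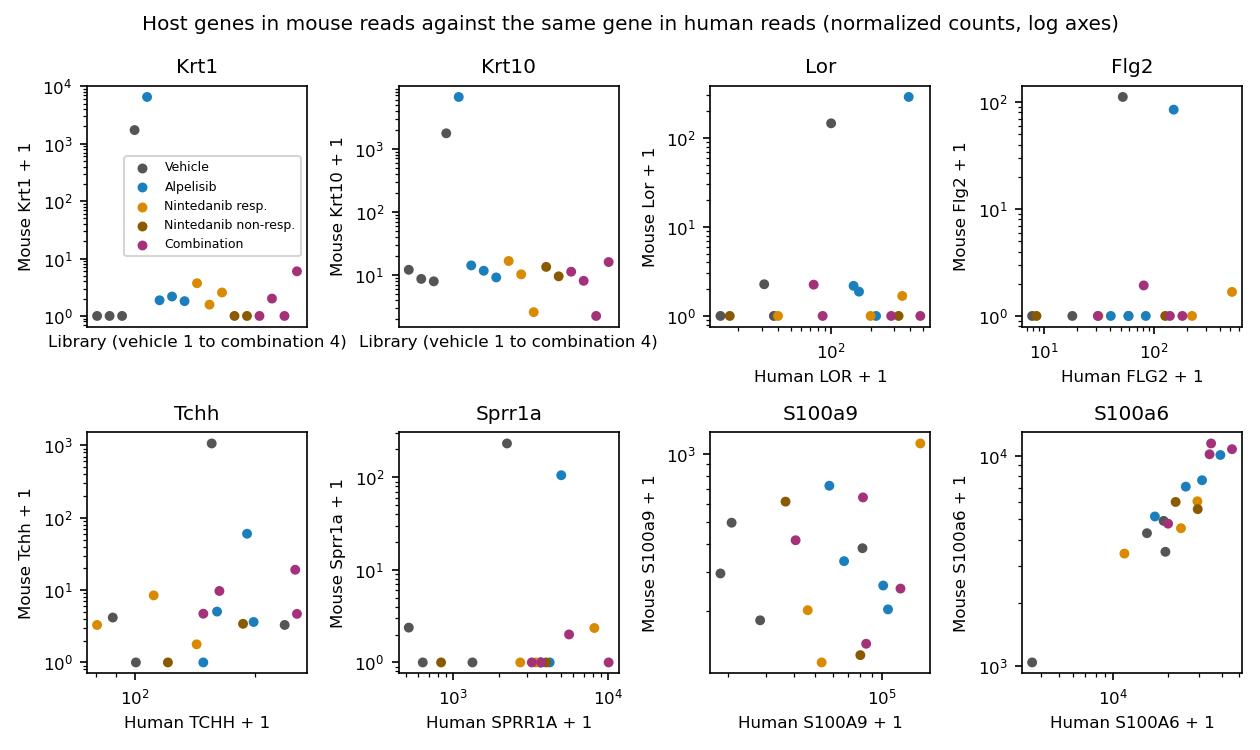
Mouse reads of 8 host genes (normalized count + 1, log axes), for Krt1 and Krt10 by library and for the others against the human gene of the same name; 1 point per library, coloured by group. Vehicle 4 and alpelisib 1 stand apart for Krt1, Krt10, Lor, Flg2, Tchh and Sprr1a, while mouse S100a6 is higher in libraries with more human S100A6.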

How the data were processed

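RNA of 17 tumours was sequenced as 75-bp paired-end reads from TruSeq RNA v2 libraries, per the labels' protocols, and reads were mapped separately to the human (hg19) and mouse (mm10) genome. Bowtie, TopHat and DESeq2 are named, without versions, per the submitters' processing notes. Which counter, annotation and strand setting were used is not given in the sources used here. Deposited are normalized counts: for each gene and library, a signal that the authors derived from counted reads with 1 scaling factor per library. Dividing each column by its smallest step recovered whole reads for 100% of human values within 0.001. The deposited values were used as they are.

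Groups came from the sample titles. Genes with a mean of at least 10 over the 17 libraries were fitted as log2(value + 1) with limma-trend (limma 3.58.1, R 4.3.3), 1 mean per group and equal weight for the 5 nintedanib libraries, with Benjamini-Hochberg adjustment over 14533 genes; the fit was tested on simulated data. edgeR 4.0.16, limma-voom and DESeq2 1.42.0 on the recovered reads, other scalings, pseudocounts and filters, a replicate block and left-out libraries were tried as alternatives. No 2 libraries of a group were copies (lowest chi-square per gene 18.9 over 22 pairs). RefSeq (GRCh38.p14) served only for names and gene order.

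Described in full were up to 6 SPRR, 3 LCE, 8 S100A, 4 S100-fused and 2 other members with the highest mean and any member past the threshold; of each related list, up to 4 genes with the smallest p against vehicle. Members and lists were chosen with earlier results of these data known. The floor of 3 reads covers counting error only.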

Additional observations from a re-analysis of the deposited data

Results flagged for a closer look

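Of 164 combinations of a member and a group of 4 or 5 tumours, 12 held 1 tumour farther from its nearest neighbour than Dixon's 95% limit allows. That limit flags about 1 in 20 by chance for independent, normally distributed values. The values here were counts without a log step, from members that share libraries, so the 12 cannot be set against that rate. Values are normalized counts. In nintedanib responder 1, SPRR2G stood at 1001, SPRR2B at 130.3, SPRR4 at 60.2, LCE3D at 675, S100A8 at 76933 and S100A7 at 25831, each above the other 4 nintedanib tumours. Vehicle 4 stood above the other vehicle tumours in S100A9 (81817) and S100A12 (629). HRNR was high in vehicle 3 (118) and in nintedanib responder 3 (88.0). IVL was high in alpelisib 1 (653). RPTN was low in nintedanib non-responder 1 (33.6).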

How the results depend on the processing

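Of 522 recomputed medians of the subfamilies and of all members against vehicle, 520 were positive over 29 alternatives. The nintedanib median of the S100-fused genes was -0.058 without vehicle 1 and -0.022 without vehicle 2. Part of the 522 came from fits that left out a library of neither group, where a median could change only through the filter. These values mostly repeat the main ones, so the count of positive medians overstates stability. A library of the groups compared was left out in 8, 9 and 8 fits under alpelisib, nintedanib and the combination. Of the member calls 0 reversed. The number of members called higher under the combination, 2 in the analysis reported, was not stable. It was 0 with TMM scaling, a pseudocount of 0.5, no filter, a mean of at least 50, edgeR, and without the 4 libraries with most Rn45s and Lars2 (vehicle 3, alpelisib 3, combination 1 and 4), 1 with limma-voom and 11 with DESeq2, which called 8 under alpelisib and 2 under nintedanib. Leaving out 1 library at a time gave 0 to 5, with 5 without vehicle 4. With the replicate number as a block it was 0; across groups, deviations correlated above 0.1 in 7 of 29 pairs that share a number and in 33 of 85 that do not, so the numbers were not treated as pairs. Without vehicle 4 and alpelisib 1, chosen after seeing the data, it was 2. With a mean of at least 50 only LCE3D remained of the LCE genes, at 4.04 for responders against non-responders and -0.61 for the departure from additivity. Leaving out 1 library, the responder medians ranged from -0.047 to 2.06 over all members, 0.18 to 2.47 for SPRR, 1.06 to 2.92 for LCE and -0.38 to 2.99 for IVL and LOR. Low counts limit the LCE genes, whose changes moved with the pseudocount. The cause of these shifts was not tested.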
